A study of Mus musculus with 4 samples.

Results

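MHC class II genes encode the proteins that antigen-presenting cells use to display peptides to CD4+ T cells. Their RNA was examined in LSK cells, a bone marrow fraction defined by c-Kit and Sca-1 and by the lack of lineage markers, which contains hematopoietic stem cells (HSCs) and early progenitors. The genes were *H2-Aa*, *H2-Ab1*, *H2-Eb1*, *H2-DMa*, *H2-DMb1*, *Cd74* and *Ciita*. Every non-control probe that the array files file under one of these names was taken, which gave 12 probes for 7 genes out of 41174 probes. Both groups were C57BL/6J mice homozygous for a floxed *Meis1* allele (*Meis1*fl/fl), in which the targeted exon encodes the homeodomain. The Meis1-KO mice also carried *Mx1-Cre*, an interferon-inducible transgene that is not restricted to blood cells. The Meis1-WT mice lacked Cre but kept both floxed alleles. According to the sample labels, mice aged 4 to 8 weeks received 4 intraperitoneal injections of poly(I:C), which induces interferon, at 1.5 µg/g and daily intervals. The design text and the array methods instead describe the Meis1-WT mice as sham-treated, so the poly(I:C) history of the control group is not settled. LSK cells were taken 1 week after poly(I:C), and each array carried amplified RNA (10 ng at the start) from a pool of 6 mice, with 2 pools per genotype.

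MHC class II molecules are pairs of an α and a β chain. In mice *H2-Aa* and *H2-Ab1* encode the I-A pair, and *H2-Eb1* encodes the β chain of I-E. New pairs bind the invariant chain CD74, which blocks the peptide groove until proteases in endosomes degrade it. The H2-DM dimer, encoded by *H2-DMa* and *H2-DMb1*, then exchanges the remaining CD74 fragment for an antigen peptide. CIITA, the product of *Ciita*, is the co-activator that switches these genes on together. Mature B cells, dendritic cells and macrophages are the cells best known for high class II expression.

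Values are log2 processed signals minus the 75th percentile of their array, called scaled log2 values here, and a difference is Meis1-KO minus Meis1-WT. Meis1-KO 1 and Meis1-WT 1 shared slide 1, and Meis1-KO 2 and Meis1-WT 2 shared slide 2. Between 49.2% and 57.4% of spots were well above background per array, and the lowest share was that of Meis1-KO 2. That array correlated with the other arrays at 0.934 to 0.946 and the others among themselves at 0.967 to 0.977, so the class II median and the difference of each tested class II gene are also given without it. The *Meis1* probe A_52_P670612 read 0.28 and 0.24 in Meis1-KO and 1.04 and 1.47 in Meis1-WT. The second *Meis1* probe, A_52_P26195, read -2.44 and -3.52 against -1.52 and -1.04, and Meis1-KO 2 was not well above background there. Both probes were lower on both Meis1-KO arrays. Whether either lies in the floxed exon cannot be read from the probe positions used here. Of the markers that define the LSK gate, *Kit* differed by -0.21 and *Ly6a*, which encodes Sca-1, by 0.03, and all 10 LSK markers on the list were well above background on all 4 arrays.

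The MHC class II probes lay mostly lower in Meis1-KO, but none met the study's criteria of an unadjusted p below 0.01 and more than 2-fold. Of the 12 probes, 11 were bright enough to test. The criteria were met by 0 of these 11 probes, against 0.600% of all 22007 tested probes called lower. An unadjusted limma p under 0.05 with a lower value in Meis1-KO was found for 3 of the 11 probes, against 1.89% of all tested probes. The adjusted p by limma was 0.983 for 10 of them and 0.992 for the other, and no probe on the whole array had an adjusted p under 0.05. With the slide as a block 34 probes did, and without a filter on dim probes 3 did. With an array left out, 803 did without Meis1-KO 1, 2 without Meis1-WT 2 and 0 without either of the others. Both Meis1-KO arrays lay below both Meis1-WT arrays for 6 of the 11 tested probes, against 10.8% of all tested probes. Within each slide, 10 of the 11 were lower in Meis1-KO on both slides, against 20.9% of all tested probes. The median difference was -0.91 over all 12 probes and -0.98 over the 11 tested, beside 0.23 over all 41174 probes and 0.08 over all tested probes. By slide it was -0.92 on slide 1 and -1.16 on slide 2 over the 12 probes. With an array left out it was -0.59 without Meis1-KO 1, -1.37 without Meis1-KO 2, -1.42 without Meis1-WT 1 and -0.45 without Meis1-WT 2. Several of these probes read the same transcript, so they are not separate observations. With 2 arrays against 2, an exact permutation test cannot go below 0.333 (two-sided).

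**Figure D1:**
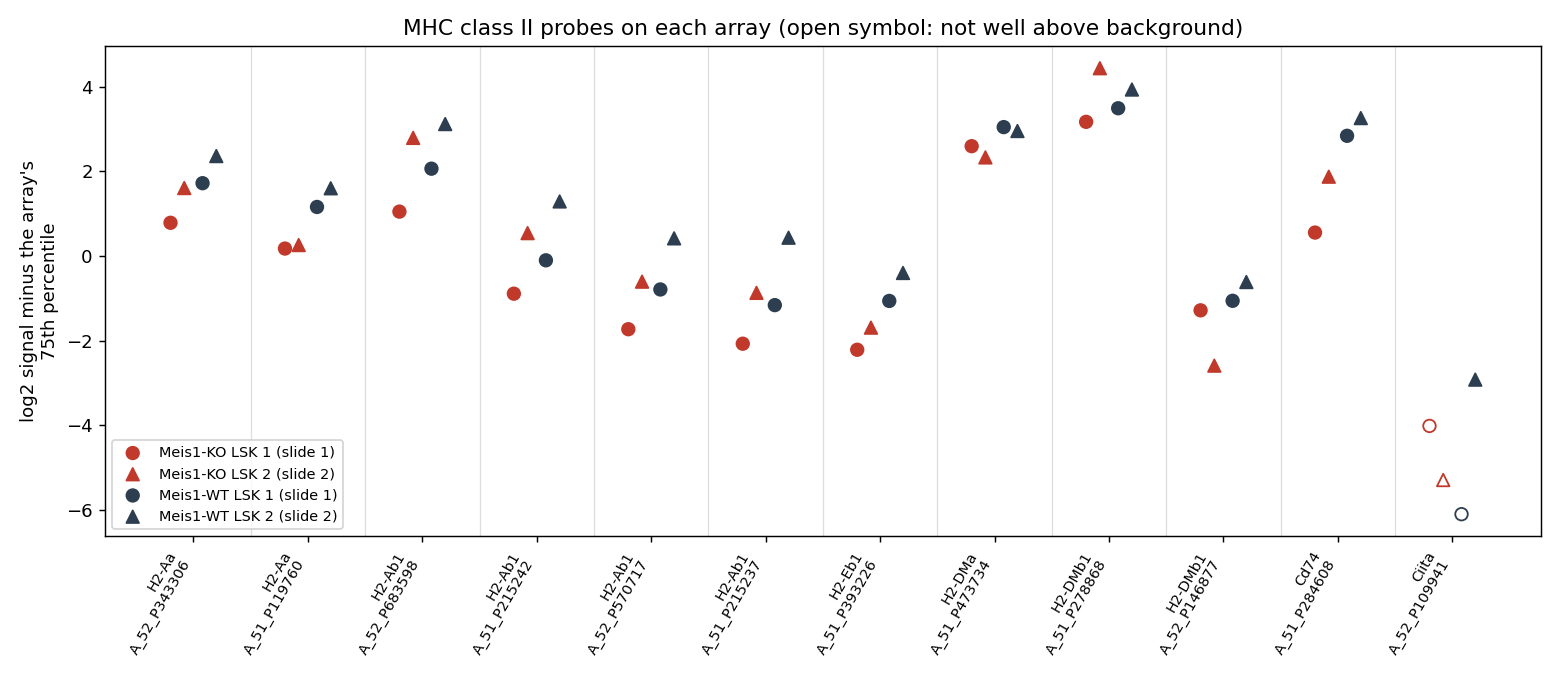
Scaled log2 value (log2 signal minus the array's 75th percentile) of each of the 12 MHC class II probes on the 4 arrays, with Meis1-KO in red, Meis1-WT in dark blue, slide 1 as circles and slide 2 as triangles. Both red symbols lie below both blue symbols for 6 probes, and for the 4 *H2-Ab1* probes the slides differ as much as the genotypes do.

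The I-A α chain gene *H2-Aa* was lower in both Meis1-KO pools at both of its probes. At A_51_P119760 (mm9 chr17:34420627-34420686, minus strand) the Meis1-KO arrays read 0.18 and 0.26 and the Meis1-WT arrays 1.16 and 1.60. The Meis1-KO arrays nearly coincided, and the groups did not overlap. The difference was -1.16 with an SE of 0.44 and a 95% interval of -2.22 to -0.10, which is 2.24-fold lower (limma, adjusted p = 0.983). At A_52_P343306 (mm9 chr17:34421285-34421344, minus strand) the values were 0.79 and 1.61 against 1.72 and 2.36. Here the highest Meis1-KO array came within 0.2 of the lowest Meis1-WT array, and the difference was -0.85 with an interval of -2.09 to 0.40 (limma, adjusted p = 0.983). Without Meis1-KO 2 the differences at these probes were -1.20 and -1.26, and without Meis1-KO 1 they were -1.12 and -0.44. Leaving out Meis1-WT 1 gave -1.38 and -1.17, and leaving out Meis1-WT 2 gave -0.94 and -0.53.

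The I-A β chain gene *H2-Ab1* had 4 probes. Its brightest, A_52_P683598 (mm9 chr17:34406059-34406118), read 1.05 and 2.79 in Meis1-KO and 2.06 and 3.12 in Meis1-WT. The groups overlapped, because the Meis1-KO 2 array lay above the Meis1-WT 1 array. The difference was -0.67 with an interval of -2.40 to 1.06 (limma, adjusted p = 0.983). The other three probes lay elsewhere in the gene or overlapped each other in sequence, and all were lower on average in Meis1-KO. A_51_P215242 (mm9 chr17:34401723-34401782) gave -0.89 and 0.54 against -0.10 and 1.29. A_51_P215237 (mm9 chr17:34404388-34404447), printed in 10 spots on each array, gave -2.07 and -0.87 against -1.16 and 0.43. A_52_P570717, which the array annotation leaves without a position, gave -1.73 and -0.60 against -0.79 and 0.42. Their differences were -0.77, -1.11 and -0.98, and in each the groups overlapped. On a single slide all 4 probes were lower in Meis1-KO, with differences of -1.01, -0.79, -0.91 and -0.94 on slide 1 and of -0.33, -0.75, -1.30 and -1.02 on slide 2 in the order given here. Without Meis1-KO 2 they were -1.54, -1.48, -1.71 and -1.54, and without Meis1-KO 1 they were 0.20, -0.05, -0.51 and -0.42.

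Between slides the same 4 probes moved by at least as much as between genotypes. Slide 2 minus slide 1 was 1.12 to 1.74 within Meis1-KO and 1.05 to 1.59 within Meis1-WT. Over all tested probes the median of that slide difference was 0.15 in Meis1-KO and 0.03 in Meis1-WT. Slide and pool cannot be told apart within a genotype, since each slide held 1 pool of each.

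A pair of these probes covers overlapping stretches of *H2-Ab1* and is shown because the letters differ within the stretch they share. The design files place A_51_P215242 on the RefSeq transcript and A_52_P570717 on a cDNA clone. Their best ungapped match runs over 31 bases, of which 29 are identical, and capitals mark the 2 bases that differ.
A_51_P215242: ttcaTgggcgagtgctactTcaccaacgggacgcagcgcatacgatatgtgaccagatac
A_52_P570717: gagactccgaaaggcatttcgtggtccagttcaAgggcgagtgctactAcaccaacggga
The genotype difference was -0.77 at the first and -0.98 at the second, with SEs of 0.70 and 0.63. On slides 1 and 2 it was -0.79 and -0.75 at the first and -0.94 and -1.02 at the second. Both probes were read on the same arrays, so these SEs do not measure the gap between them, which was not tested.

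*H2-Eb1*, the I-E β chain gene, was measured by 1 probe, A_51_P393226 (mm9 chr17:34452050-34452511). The array files name the gene *H2-Eb1* but describe the probe's source sequence as an I-A β mRNA of NOD mice, and the name in the files is kept here. Meis1-KO read -2.21 and -1.69 and Meis1-WT -1.06 and -0.40, and the groups did not overlap. The difference was -1.22 with an SE of 0.48 and an interval of -2.39 to -0.05, or 2.33-fold lower (limma, adjusted p = 0.983). It was -1.15 on slide 1 and -1.29 on slide 2. With normexp background correction the difference was -0.35. It was -0.96 without Meis1-KO 1, -1.48 without Meis1-KO 2, -1.55 without Meis1-WT 1 and -0.89 without Meis1-WT 2. Mice of the C57BL/6 background carry a defective *H2-Ea* gene and display no I-E. The *H2-Ea* probe, looked up after the values of the other genes were seen, was not well above background on any of the 4 arrays.

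The promoters of class II genes are known to share a short module in which the X2 box binds CREB-family factors and the Y box binds NF-Y, and CIITA docks on the proteins bound there. The RefSeq promoter table (GRCm38.p6, windows of 300 bases around each start) held 4 of the 7 genes, in 5 windows, and the 130 bases before the start are shown for the 3 windows that held a Y box. In capitals are the Y box (letters TGATTGG) and an X2-like element in 1 of 2 forms, TGACGTCA or TGATGATG, all chosen after the promoters were seen.
H2-Aa, chr17:34287824-34287953, minus strand: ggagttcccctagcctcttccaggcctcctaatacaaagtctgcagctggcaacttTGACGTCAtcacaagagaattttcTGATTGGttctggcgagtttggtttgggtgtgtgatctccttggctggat
H2-Eb1, chr17:34305737-34305866, plus strand: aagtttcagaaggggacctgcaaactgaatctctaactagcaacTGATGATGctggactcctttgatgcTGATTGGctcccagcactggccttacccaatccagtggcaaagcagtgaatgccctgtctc
H2-DMb1, chr17:34153061-34153190, plus strand: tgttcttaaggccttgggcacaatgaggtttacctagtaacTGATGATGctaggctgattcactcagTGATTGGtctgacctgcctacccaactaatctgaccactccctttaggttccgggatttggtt

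In these 3 promoters the Y box began 50, 61 and 63 bases before the start of *H2-Aa*, *H2-Eb1* and *H2-DMb1*, and 16, 17 and 18 bases separated it from the X2-like element. The Y box letters were found, on either strand, in 7.82% of 32851 promoters, TGACGTCA in 1.79% and TGATGATG in 1.44%. A Y box on the forward strand together with either X2-like form was found in 0.131%. Neither *H2-DMa* window held these letters. Outside the 7 genes, *H2-Oa*, *H2-Ob*, *H2-DMb2* and *H2-Eb2* each held the Y box, so that 7 of 9 class II windows did. The hexamer TGACAG, the core of the sequence that Meis proteins are known to bind, was in 19.2% of all promoters and, among these class II windows, in that of *H2-Oa*. Promoters of *H2-Ab1*, *Cd74* and *Ciita* were not analysed here.

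*Cd74*, which encodes the invariant chain, differed most among the tested class II probes when all 4 arrays were used. Its probe A_51_P284608 (mm9 chr18:60972075-60972132) read 0.56 and 1.87 on the Meis1-KO arrays and 2.84 and 3.26 on the Meis1-WT arrays. The groups did not overlap, and the Meis1-KO pools were farther apart (SD 0.93) than the Meis1-WT pools (SD 0.30). The difference was -1.83 with an SE of 0.57 and an interval of -3.23 to -0.44, or 3.57-fold lower (limma, adjusted p = 0.983). Slide 1 gave -2.29 and slide 2 -1.38. With the slide as a block *Cd74* met the criteria (limma, adjusted p = 0.369), as did 1.35% of all tested probes in the same direction. By the unpaired t-test named in the methods *Cd74* did not meet them (t-test, unadjusted p = 0.118). Leaving out Meis1-KO 2 moved the *Cd74* difference to -2.49, and leaving out Meis1-KO 1 moved it to -1.17. Without Meis1-KO 1 the *H2-DMb1* probe A_52_P146877 differed more, by -1.75.

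**Figure D2:**
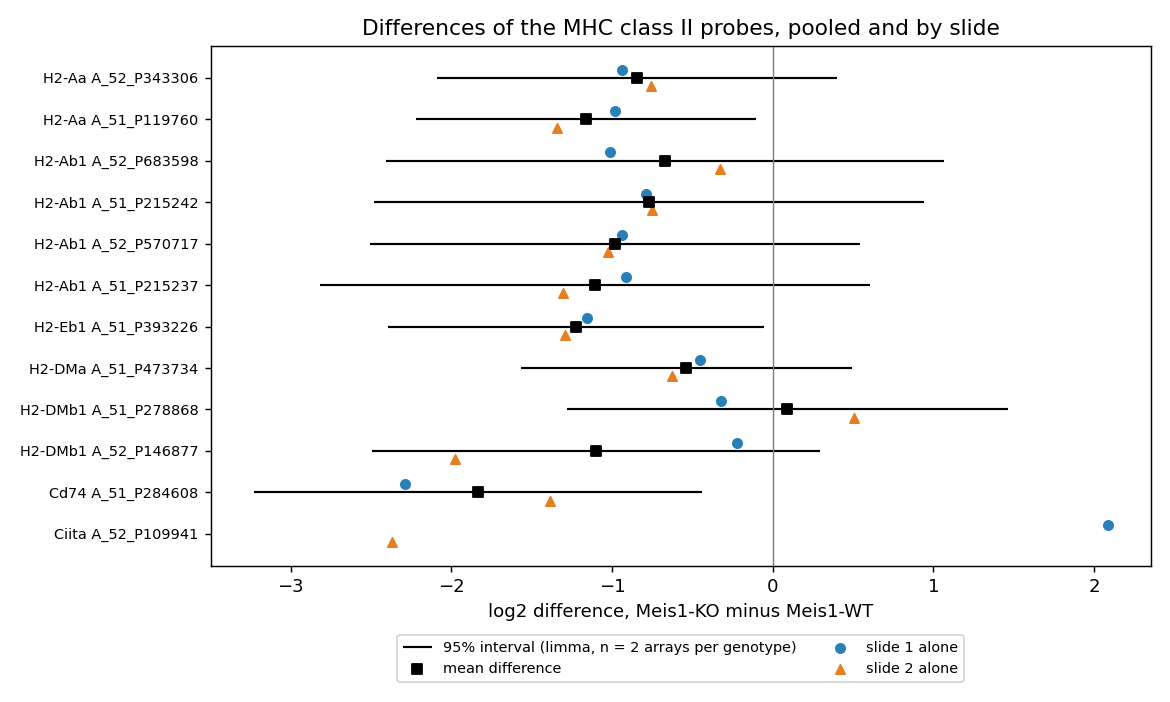
Difference of each MHC class II probe (log2, Meis1-KO minus Meis1-WT) as the mean with its 95% interval from limma (squares and lines, 2 arrays per genotype) and within slide 1 (circles) and slide 2 (triangles). The intervals of 3 probes end below 0, and *Ciita*, which was too dim to test, has slide values of opposite sign and no interval.

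The H2-DM probes did not all go the same way, and differences between them were not tested. *H2-DMa* (A_51_P473734, mm9 chr17:34274300-34274863) read 2.60 and 2.33 in Meis1-KO and 3.05 and 2.95 in Meis1-WT. The pools of each genotype lay close together and the groups did not overlap, with a difference of -0.54 and an interval of -1.57 to 0.49 (limma, adjusted p = 0.983). Without Meis1-KO 2 the difference was -0.40. *H2-DMb1* had a pair of probes that disagreed. A_51_P278868 (mm9 chr17:34297109-34297168) read 3.17 and 4.44 in Meis1-KO and 3.49 and 3.93 in Meis1-WT. The highest and the lowest of these values were both Meis1-KO, so the groups overlapped, and the difference was 0.09 with an interval of -1.28 to 1.47 (limma, adjusted p = 0.992). The direction turned after quantile normalization, to -0.14, and the difference was -0.32 on slide 1 against 0.50 on slide 2. Without scaling it was -0.29, where the median of all tested probes was -0.30. A_52_P146877 (mm9 chr17:34294265-34294324) read -1.28 and -2.59 against -1.06 and -0.61, a difference of -1.10 with an interval of -2.49 to 0.29 (limma, adjusted p = 0.983). Most of that difference came from slide 2, with -1.97 against -0.22 on slide 1, and with normexp background correction it was -0.23. Without Meis1-KO 2 the differences of the pair were -0.54 and -0.45. The accessions given for this probe name both *H2-DMb1* and its close relative *H2-DMb2*, so the gene it reads is uncertain.

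*Ciita*, the gene of the co-activator, was close to background. Its single probe A_52_P109941 (mm9 chr16:10526303-10526362) read -4.01 and -5.29 in Meis1-KO and -6.10 and -2.92 in Meis1-WT. It was well above background on Meis1-WT 2 and not on the other arrays, so no fold is given. The slide values had opposite signs.

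Other class II chains were read at their brightest probe, as were all lists that follow. *H2-Ob*, the β chain of the H2-DM inhibitor H2-O, read -2.65 and -1.72 in Meis1-KO and -1.45 and -0.98 in Meis1-WT, a difference of -0.97 with an SE of 0.51. *H2-DMb2* read -1.68 and -2.36 against -0.93 and -1.53, a difference of -0.79 with an SE of 0.49. The groups did not overlap for either gene, and neither met the criteria. *H2-Ob* was -0.51 without Meis1-KO 1, and *H2-DMb2* was -0.45 without Meis1-KO 2 and -0.49 without Meis1-WT 1. *H2-Oa*, the α chain of H2-O, differed by 0.27 with an SE of 0.52, with groups that overlapped. Its difference was 0.81 without Meis1-WT 1 and -0.27 without Meis1-WT 2. *H2-Eb2* was not well above background on any array. Both Meis1-KO arrays lay below both Meis1-WT arrays for 9.63% and above them for 16.6% of the 12250 genes tested at their brightest probe, where 0.637% were called lower. Of the 7 class II genes at their brightest probe, 6 were tested, 0 were called, 4 had Meis1-KO below Meis1-WT without overlap, and the median difference over the 7 was -0.67, beside 0.13 over all tested genes.

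The factors that act on class II promoters or on *Ciita* varied in sign. All 10 listed genes were tested, none met the criteria, and their median difference was 0.05. The RFX subunit genes *Rfx5*, *Rfxap* and *Rfxank* differed by 0.06, 0.11 and -0.24. The NF-Y subunit genes *Nfya*, *Nfyb* and *Nfyc* differed by -0.26, 0.69 and -0.09. *Creb1*, whose product binds the X2 box, differed by 0.65. Without Meis1-KO 2 *Nfyb* was -0.16 and *Creb1* 0.04, and without Meis1-KO 1 they were 1.54 and 1.26. *Irf1* and *Usf1*, which act on the *Ciita* gene, differed by -0.40 and 0.48. *Irf1* was -0.76 without Meis1-KO 1, -0.04 without Meis1-KO 2, 0.08 without Meis1-WT 1 and -0.88 without Meis1-WT 2. The SEs over the 10 listed genes were 0.42 to 0.64. *Nfya* read lower on both Meis1-KO arrays and *Usf1* higher, and the groups of the others overlapped.

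The enzymes that prepare peptides and degrade CD74 varied in sign. Of 9 listed genes, 8 were on the array, all 8 were tested and none met the criteria, with a median difference of -0.02. *Ctss*, encoding the cathepsin S that trims the invariant chain, read 2.92 and 4.35 in Meis1-KO and 3.70 and 3.19 in Meis1-WT, so that its slides went opposite ways. *Ctsl*, *Ctsb*, *Ctsd* and *Ctsh*, further cathepsins, differed by -0.01, -0.16, -0.03 and -0.22. *Lgmn*, encoding asparagine endopeptidase, differed by 0.09. *Ifi30*, encoding a thiol reductase of the endosome, was higher on both Meis1-KO arrays, at -0.62 and 0.27 against -0.96 and -0.68. *March1*, encoding a ubiquitin ligase that removes class II from the cell surface, was lower on both, at -3.42 and -2.75 against -2.58 and -2.18. Without Meis1-KO 2 the difference of *Ifi30* was 0.20, and without Meis1-KO 1 that of *March1* was -0.36.

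The MHC class I pathway, some of whose genes lie among the class II genes on chromosome 17, had a median difference of 0.15 over 16 tested genes, and none met the criteria. The genes farthest from 0 were the proteasome genes *Psmb10* (0.58), *Psme2* (0.49) and *Psmb8* (0.48). On slide 1 they differed by -0.13, 0.06 and -0.03 and on slide 2 by 1.28, 0.91 and 1.00, and without Meis1-KO 2 by -0.21, 0.35 and -0.05. Between the outermost class II probes (mm9 chr17:34231964-34481528) lay 17 class II probes and 6 probes of other genes, namely *Brd2*, *Psmb9*, *Tap1*, *Psmb8* and *Tap2*. The 13 class II probes tested there had a median difference of -0.79, and 7 of them had both Meis1-KO arrays below both Meis1-WT arrays, against 10.8% of all tested probes. The 6 other probes had a median difference of 0.15, and their groups overlapped in every case. The class II genes *Cd74* and *Ciita* lie on other chromosomes.

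**Figure D3:**
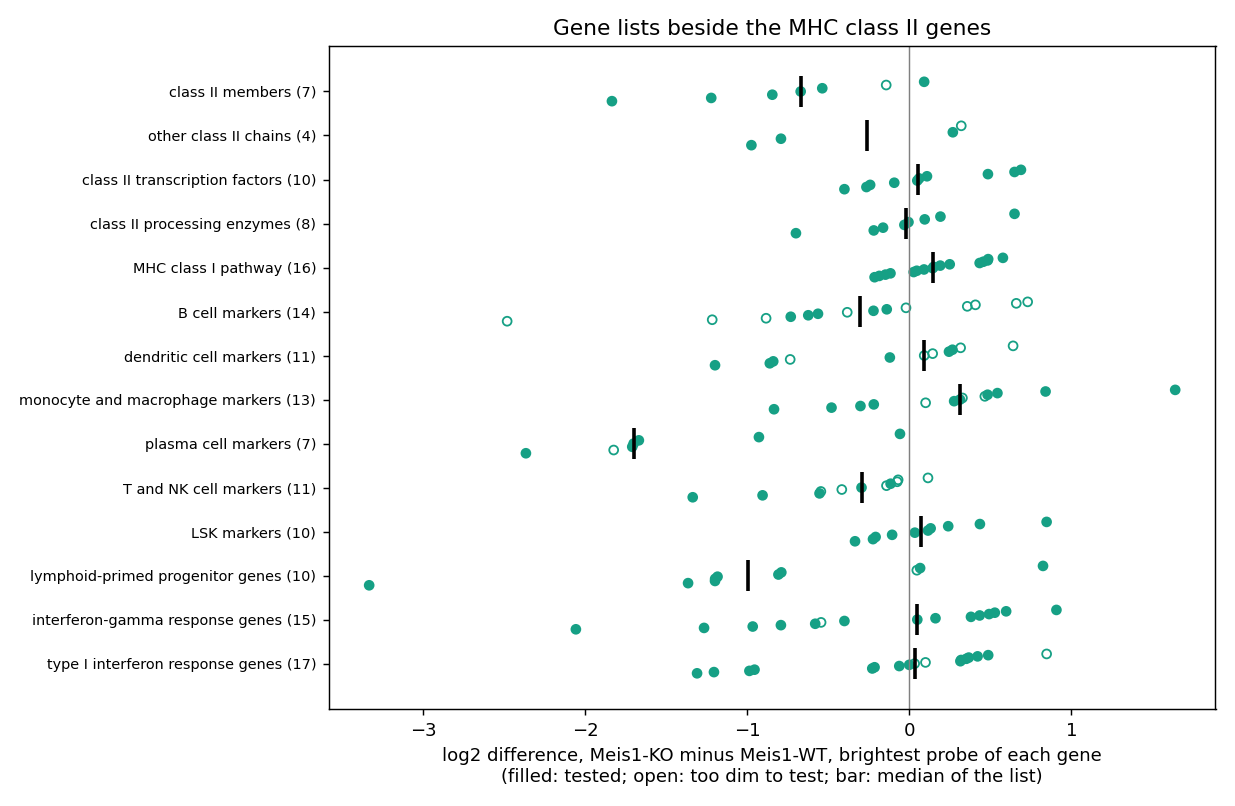
Difference (log2, Meis1-KO minus Meis1-WT) of each gene at its brightest probe in the MHC class II genes and 13 other lists, with the number of genes on the array in parentheses, tested genes filled and the median as a bar. The medians of the class II genes, the plasma cell markers and the lymphoid-primed progenitor genes lie farthest below 0, at -0.67, -1.70 and -0.995.

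The lineage gate used antibodies to CD11b, Gr-1, TER119, B220 and the T cell antigen CD3, and CD11c was not in that mixture. Markers of mature cell types, including those known for high class II expression, were therefore read beside the class II genes. In RNA from a pool, fewer cells of a type and less RNA per cell cannot be told apart. Of 14 B cell markers, 5 were tested and none met the criteria, and 6, among them *Pax5* and *Cd22*, were not well above background on any array. The median difference was -0.30 over the 14 and -0.56 over the 5 tested. The first was 0.22 with normexp background correction and -0.65 without Meis1-WT 2. It was -0.68 without scaling between arrays, where the median of all tested probes was -0.30. Their summed linear level, as multiples of each array's 75th percentile, was 12.6 and 9.26 in Meis1-KO and 19.8 and 8.34 in Meis1-WT. Among the tested B cell markers, *Blnk* differed by -0.73 and *Vpreb3* by -0.56, and without Meis1-WT 1 they were -0.09 and -0.35. Of 11 dendritic cell markers on the array, 6 were tested and none met the criteria, and 4, *Batf3*, *Cd209a*, *Siglech* and *Ccr7*, were above background on no array. The median difference was 0.09 over the 11 and -0.48 over the 6 tested. The first turned to -0.51 without Meis1-KO 2, -0.11 without Meis1-WT 1 and -0.51 without Meis1-WT 2. It was -0.29 without scaling between arrays, a setting that shifts every probe alike. The summed level of the 11 was 18.5 and 12.3 against 20.2 and 10.2. *Ccr9*, *Ly75* and *Zbtb46*, the tested genes farthest from 0, differed by -1.20, -0.86 and -0.84, and *Xcr1*, *Clec10a* and *Itgax*, the rest of those tested, by 0.24, 0.27 and -0.12. *Ccr9* was not well above background on Meis1-KO 2. Without that array *Ccr9* was -0.55 and *Ly75* -0.36, and without Meis1-WT 1 *Ccr9* was -0.49. Both summed levels were higher in Meis1-WT than in Meis1-KO on slide 1 and lower on slide 2, and each was carried mostly by its brightest gene, *Vpreb1* for B cells and *Clec10a* for dendritic cells. Without *Clec10a* the dendritic sum was 3.57 and 4.03 in Meis1-KO and 4.47 and 4.79 in Meis1-WT, higher in Meis1-WT on both slides. Without *Vpreb1* the B cell sum was 2.24 and 2.43 against 3.85 and 2.29.

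Monocyte and macrophage markers, of which 10 of 13 were tested and none met the criteria, had a median difference of 0.31. *Mrc1*, *Cx3cr1* and *C1qa* were above background on no array, the summed level was 23.5 and 36.5 in Meis1-KO and 24.6 and 22.02 in Meis1-WT, and *Fcgr1*, *Ccr2* and *Ly6c1* differed by 1.64, 0.84 and -0.83. *Ly6c1* gave -3.28 on slide 1 and 1.61 on slide 2, and it was 1.32 without Meis1-KO 1. *Fcgr1* was not well above background on Meis1-WT 2, without which its difference was 0.41, and *Ccr2* was 0.27 without Meis1-KO 2 and 0.51 without Meis1-WT 1. The median of the list was -0.06 without scaling between arrays, where the median of all tested probes was -0.30. Plasma cell markers had a median difference of -1.70 over 7 genes, which was -3.57 on slide 1 and 0.79 on slide 2. It was 0.12 without Meis1-KO 1, -0.75 without Meis1-WT 1 and -0.52 with normexp background correction. Their summed level was 5.17 and 27.1 in Meis1-KO and 29.1 and 14.2 in Meis1-WT, so the lowest value was that of Meis1-KO 1. *Irf4*, *Mzb1* and *Sdc1* differed by -2.37, -1.71 and -1.70, and none of the 6 tested met the criteria. Without Meis1-KO 1 *Mzb1* was 0.12 and *Sdc1* -0.78, and without Meis1-WT 1 *Irf4* was -1.19. *Irf4* was not well above background on Meis1-KO 2, and it was called lower once slide entered the fit as a block. T and NK cell markers had a median difference of -0.30, with 5 of 11 tested, none past the criteria, a summed level of 3.47 and 4.59 against 3.86 and 6.61, and *Cd3e*, *Cd3g* and *Ncr1* above background on no array. *Cd8a*, *Klrb1c* and *Lck* differed by -1.34, -0.91 and -0.55, and *Cd8a* and *Lck* were not well above background on Meis1-KO 2, without which *Lck* was -0.31. *Klrb1c* gave -2.01 on slide 1 and 0.20 on slide 2, and it was -0.40 without Meis1-KO 1 and -0.31 without Meis1-WT 1. The median of this list was 0.24 with normexp background correction, 0.13 without Meis1-KO 1 and 0.09 without Meis1-WT 2, and it was -1.03 without Meis1-KO 2 and -1.19 without Meis1-WT 1. The part of any of these cells in the class II differences was not tested.

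Among genes of lymphoid-primed progenitors, which LSK cells include, the median difference was -0.995, and it was below 0 on slide 1 and on slide 2 (-0.91). It was -0.21 with normexp background correction, -0.57 without Meis1-KO 2 and -0.49 without Meis1-WT 1. Of 9 tested genes, 1 met the criteria, against 0.637% of the 12250 genes tested at their brightest probe, and 7 were lower in Meis1-KO on both slides, against 19.5% of those genes. That gene was *Flt3*, a receptor that marks these progenitors, which read -2.29 and -4.70 in Meis1-KO and -0.17 and -0.16 in Meis1-WT, a difference of -3.33 with an SE of 0.80 (limma, adjusted p = 0.983). Meis1-KO 2 was not well above background for it, and without that array the difference was -2.13. *Il7r* and *Ccr9* followed with -1.36 and -1.20, and they too were not well above background on Meis1-KO 2, without which they were -0.96 and -0.55. The LSK markers themselves had a median difference of 0.07, and none of the 10 met the criteria. *Cd48*, *Tal1* and *Procr* lay farthest from 0 among them, at 0.85, 0.44 and -0.34. *Cd48* was 0.05 on slide 1 and 1.64 on slide 2, 0.49 without Meis1-KO 2 and 0.40 without Meis1-WT 2, and *Procr* was -0.15 without Meis1-KO 1 and -0.12 without Meis1-WT 1. Their part in the class II differences was not tested either.

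Interferon-γ is the best-known inducer of class II genes through *Ciita*, and poly(I:C) raises type I interferon, so genes responding to each were listed. Interferon-γ response genes had a median difference of 0.05 over 15 genes, with 14 tested and none past the criteria. They divided evenly by slide, with 5 lower and 5 higher in Meis1-KO on both, against 19.5% and 31.8% of all genes tested at their brightest probe. *Cxcl10* differed by -2.06 with an SE of 1.11 and *Cxcl9* by -0.97. *Cxcl10* was not well above background on Meis1-KO 2, where it read -5.12, and with the slide as a block it met the criteria. Without that array its difference was -0.41, and without Meis1-WT 2 that of *Cxcl9* was -0.48. *Gbp4* was not well above background on either Meis1-KO array and was at least 1.89-fold higher in Meis1-WT (limma, adjusted p = 0.983). The Meis1-KO level was taken on each array as the higher of its own signal and the lowest signal well above background. The Meis1-WT arrays read -3.19 and -2.23, so the bound rests more on Meis1-WT 2. Type I interferon response genes had a median difference of 0.03 over 17 genes, with 14 tested and none past the criteria. *Oas2*, *Ifit3* and *Irf7* differed by -1.31, -1.21 and -0.99, and none of them was well above background on Meis1-KO 2. Slide 1 gave 0.43, -0.44 and 0.53 and slide 2 gave -3.05, -1.97 and -2.50. Without Meis1-KO 2 the differences were -0.23, 0.46 and -0.49, without Meis1-WT 1 that of *Ifit3* was -0.30, and without Meis1-WT 2 that of *Oas2* was -0.64 and that of *Irf7* 0.04.

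The profile of the class II genes across the 4 arrays was the mean of 6 genes at their brightest probe, each centered on its own mean. It was lowest on Meis1-KO 1 (-0.87), near 0 on Meis1-KO 2 (0.03) and Meis1-WT 1 (0.16), and highest on Meis1-WT 2 (0.68). Of 11025 other genes well above background on all arrays, *Cbara1* came nearest at a Euclidean distance of 0.11, followed by *H2-Ob* (0.14), *Pigh* (0.21), *March1* (0.23) and *Dnajc4* (0.24). The median distance of these genes was 1.35. The class II genes themselves lay 0.10 (*H2-Aa*) to 1.04 (*Cd74*) from their mean profile. Likeness over 4 arrays is a description, since the arrays share slides and scaling.

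**Figure D4:**
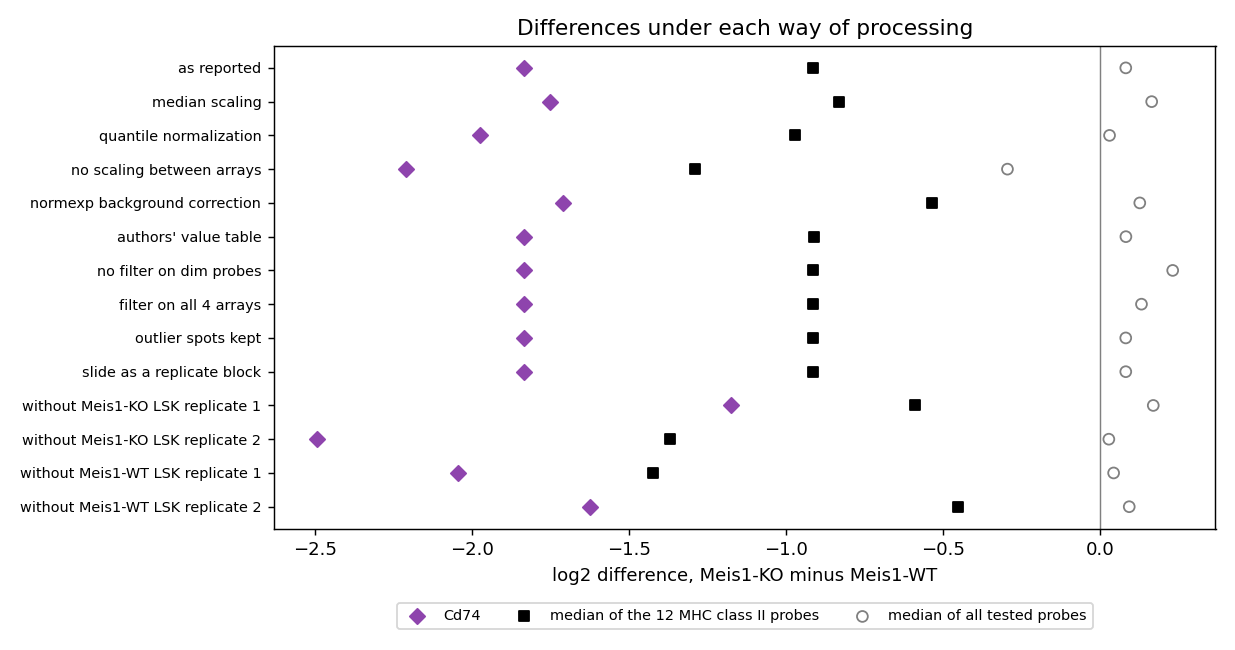
Difference (log2, Meis1-KO minus Meis1-WT) of *Cd74* (diamonds), the median over the 12 MHC class II probes (squares) and the median over all tested probes (circles) under the processing reported and 13 alternatives. *Cd74* stays between -2.49 and -1.17 and the class II median between -1.42 and -0.45, both below 0 throughout.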

How the data were processed

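Total RNA of sorted LSK cells was measured on 4 one-color Agilent arrays, and groups come from the sample titles. The authors deposited the spot intensity files of Feature Extraction (9.5.3.1 per the file headers, 9.1 per the labels), in which signals are background-subtracted, detrended and replaced by a surrogate where dim, and a table of the same intensity values rounded. Control spots and spots marked as outliers were dropped, log2 values of a probe's spots were averaged, and each array was centered on its 75th percentile. Testing required a signal well above background on both arrays of either genotype (22007 of 41174 probes). Genotypes were compared with limma 3.58.1 in R 4.3.3, genotype being the only term, with Benjamini-Hochberg adjustment over all tested probes. The script was tested on simulated data.

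The replicate number marks the slide in the files, and deviations of same-slide arrays from their genotype means correlated at 0.266. Alternatives were median, quantile and no scaling, normexp background correction (offset 50), the authors' table, 2 other filters, all spots retained, each array left out, the t-test named in the methods (unpaired, on the same values) and a block for the slide. Summed marker levels without the brightest gene, and named list genes with an array left out, were added after seeing the data. Named genes were all class II and *Meis1* probes, the class II pathway lists in full, the 3 tested genes farthest from 0 of other lists, and the 5 nearest profiles. Some single genes covered by this rule are not reported here. Members and lists were chosen with earlier results of these data known. P-values of the reported fit measure the spread between pools together with that between slides, since the pools of a genotype lay on different slides. Probe positions are those of the array annotation on mm9, and exons were not used here. *Sppl2a* and *Clec9a* were listed but had no probe under those names. On arrays, the number of replicates and signal over background limit the precision.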

Additional observations from a re-analysis of the deposited data

How the results depend on the processing

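The count of class II probes meeting the criteria was 0 as reported and 1 without scaling, with normexp, with the filter on all 4 arrays and with the slide as a block, each time *Cd74* (differences of -2.21, -1.71, -1.83 and -1.83). It was 0 under the other 6 alternatives that kept all arrays, and 0 to 1 with an array left out. Without Meis1-KO 1 the probe called was A_52_P146877 of *H2-DMb1*, at -1.75, and without Meis1-KO 2 it was *Cd74*. The cause was not tested.

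The class II median was -1.29 without scaling and -0.53 with normexp, and -1.42 to -0.45 with an array left out. Without scaling the median of all tested probes was -0.30, and relative to it the class II median was -0.99 and *Cd74* -1.92, as reported. Signs turned for *H2-DMb1* A_51_P278868, to -0.29 without scaling, -0.11 with normexp, -0.14 after quantile normalization and, with an array left out, to between -0.54 (without Meis1-KO 2) and 0.72 (without Meis1-KO 1), -0.13 without Meis1-WT 1, and for *H2-Ab1* A_52_P683598, to 0.20 without Meis1-KO 1 against -1.54 without Meis1-KO 2. The other 9 tested class II probes stayed below 0 in every alternative run, but their sizes moved. With normexp *H2-Ab1* A_51_P215237 was -0.50, A_52_P570717 -0.49, *H2-Eb1* -0.35 and *H2-DMb1* A_52_P146877 -0.23. With an array left out A_51_P215237 ranged from -1.90 (without Meis1-WT 1) to -0.31 (without Meis1-WT 2), A_52_P570717 from -1.58 to -0.38 (the same arrays), A_51_P215242 from -1.48 (without Meis1-KO 2) to -0.05 (without Meis1-KO 1), and A_52_P146877 from -1.75 (without Meis1-KO 1) to -0.45 (without Meis1-KO 2), and *H2-Aa* A_52_P343306 was -0.44 without Meis1-KO 1 and -0.53 without Meis1-WT 2.

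Medians of the other lists that lay within 0.15 of 0 (processing enzymes, transcription factors, class I pathway, dendritic cell, LSK and both interferon lists) each changed sign under at least 1 alternative, and that of the other class II chains was -0.26 as reported and 0.04 with normexp.

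On the whole array, 132 probes were lower and 30 higher. These counts were 297 and 127 with the slide as a replicate block, 23 and 7 by the methods' t-test, 45 and 2 with normexp and 44 and 10 with the filter on all 4 arrays. Higher calls numbered 14 without scaling and 101 without a filter. With an array left out, 60 to 1734 were lower and 34 to 516 higher. The lone array is then assumed to vary like the other genotype, and the largest counts came without Meis1-KO 1. The block changed no other call of a class II probe. With 2 pools per genotype, the 95% intervals of 8 of the 11 tested class II probes reached 0.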
